A study of Mus musculus with 8 samples.

Results

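The genes described here are the heat shock proteins, the J-domain chaperones and their closest partners: 88 of the 19494 named genes on the array. They were chosen by symbol alone, as all genes named Hspa, Hspb, Hspd, Hspe, Hsph or Hsp90, Dnaja, Dnajb or Dnajc, the heat shock factors Hsf, the Bag genes and the Cct subunits, and each had 1 probe set. Expression was measured on Clariom S arrays in the glucagon-producing mouse line alphaTC1.9, derived from pancreatic alpha cells. The knockdown cells, IDE-KD (4 arrays), carried a small interfering RNA against the protease insulin-degrading enzyme, and the others were control cells (4 arrays), all grown in 16 mM glucose without further treatment. The labels used here state neither the kind of control nor the time after knockdown. They call the replicates biological without naming separate cultures. A p-value here sets the difference between the groups only against the scatter of these samples, and that scatter may be technical. Of a list of well-known members, Hspa8, Hsp90ab1, Dnaja1 and Hsf1 had no named probe set and were not analysed here. Genes outside that list, such as Cct6a, can be missing too.

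Molecular chaperones hold and refold other proteins. HSP70 proteins bind exposed stretches of unfolded clients in a cycle driven by ATP. J-domain proteins deliver the clients and speed up ATP hydrolysis, and HSP110 and most BAG proteins release the nucleotide again. HSP90, the HSP60 chamber of mitochondria and the CCT ring of the cytosol take over particular clients, small heat shock proteins hold aggregating proteins without ATP, and heat shock factors switch on much of the set under protein stress. In endocrine cells the chaperones of the endoplasmic reticulum (ER), led by the HSP70 protein BiP, serve the folding of hormones on their way to secretory granules.

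The targeted gene was checked first. Ide, which encodes the knocked-down protease, read 7.91, 8.14, 7.92 and 8.05 on the log2 scale on IDE-KD arrays 1 to 4, against 8.66, 8.62, 8.72 and 8.48 on control arrays 1 to 4. All 4 IDE-KD arrays lay below all 4 control arrays, and the log2 difference of -0.62 (SE 0.12) gave p = 0.0286 in the exact two-sided permutation test, the smallest value possible for 4 against 4 arrays, but a limma adjusted p of 1.00. Of 9 alpha cell markers 6 had a named probe set, and all 6 stood above the median array control row of 4.52, among them Gcg, the glucagon gene, at 12.06 ± 0.10 in IDE-KD and 12.06 ± 0.070 in control cells (SD, n = 4 each). Of the 6 stress and immediate-early genes measured, 3 were higher and 3 lower in IDE-KD cells, 2 had an unadjusted p under 0.05 (4.59% of all probe sets did) and 3 had groups apart (2.8% of all probe sets). These 3 were the immediate-early transcription factor genes Egr1, with a difference of 0.93 (SE 0.17), and Fos, with 0.31 (SE 0.12), and the stress-induced pseudokinase gene Trib3, with -0.25 (SE 0.12). Of markers of other cells, 3 of 7 for beta, delta and PP cells, 3 of 5 for fibroblasts and 1 of 5 for immune, endothelial and exocrine cells stood above the median control row. Higher in IDE-KD cells were 6 of the 7, 5 of the 5 and 4 of the 5, with median differences of 0.15, 0.11 and 0.073. Over all probe sets 52.1% were higher, but 44.9% of those above the median control row, so dim probe sets were more often higher. The part of these marker genes in the values below was not tested.

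No chaperone gene passed an adjusted p of 0.05 between IDE-KD and control cells in limma, nor did any other probe set (0% of 22142 tested). At an unadjusted p under 0.05 there was 1 of the 88 genes (1.14%), Hspb1, against 4.59% of all probe sets (2.69% higher and 1.91% lower). The groups did not overlap for 1 of the 88 (1.14%), Hspa13, against 2.8% of all probe sets (1.39% higher and 1.41% lower). Both shares lay below those over the whole array. The differences (IDE-KD minus control, log2) ran from -0.33 to 0.46 around a median of -0.027, and 38 genes were higher and 50 lower. Over all probe sets the median was 0.0074 and 52.1% were higher. Among probe sets above the median control row, where 69 of the 88 chaperone genes also stood, the median was -0.017 and 44.9% were higher. The 95% confidence interval excluded a change of 2-fold in either direction for 88 of 88 genes and of 1.5-fold for 78 of 88 (88.6%), against 99.7% and 83.6% of all probe sets. Of the 78, 65 were among the 69 genes above the median control row, and the signals of the others were too low for the interval to bound a change in RNA amount. Leaving out 1 array at a time changed the count at unadjusted p to between 0 and 7 and the count of groups apart to between 1 and 8, with both highest values without IDE-KD array 2. In these settings 3.56% to 6.56% of all probe sets had an unadjusted p under 0.05, and 4.56% to 6.59% had groups apart. The count of chaperone genes at unadjusted p was 0 without IDE-KD array 1 or control array 4. It was 2 without IDE-KD array 3, IDE-KD array 4 or control array 2.

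**Figure D1:**
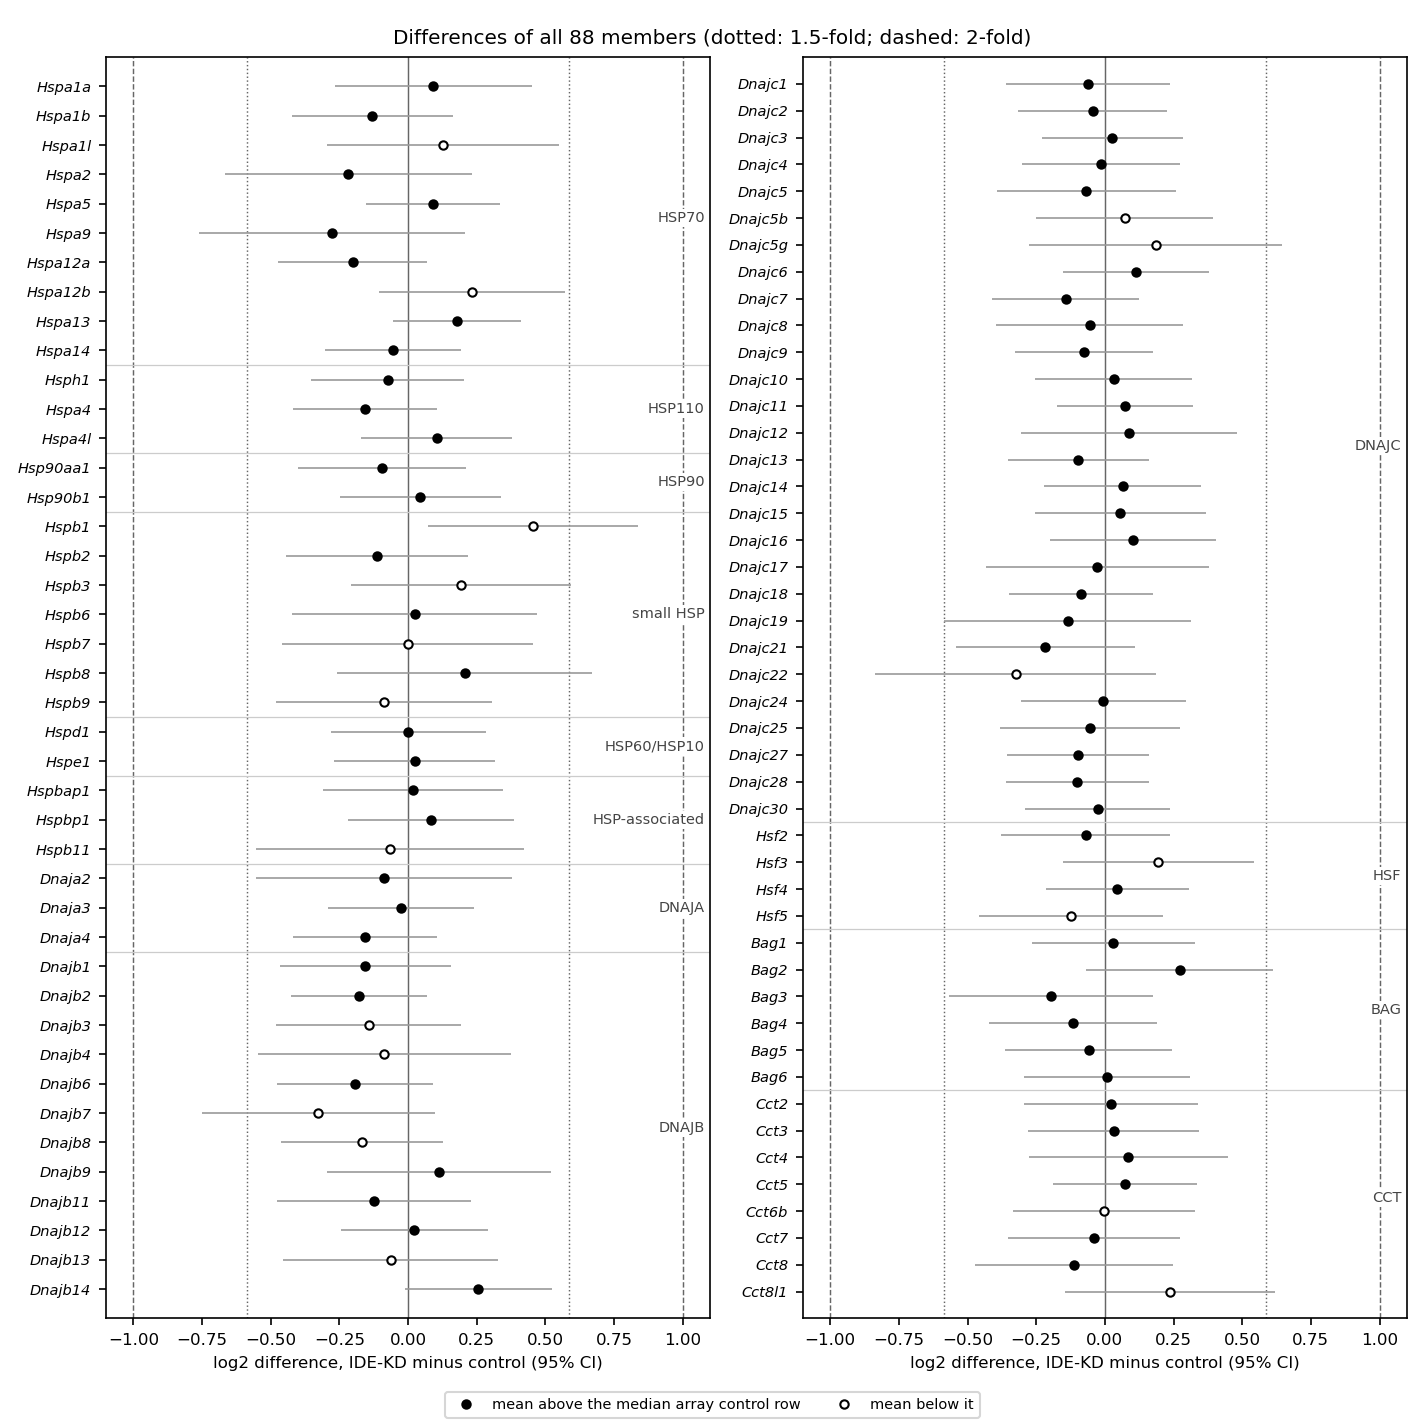
Log2 difference (IDE-KD minus control, x axis) of each of the 88 genes by family, with 95% confidence intervals from limma; filled points are genes above the median array control row and open points those below, dotted lines mark 1.5-fold and dashed lines 2-fold. All intervals stay inside the 2-fold lines, and only that of Hspb1, an open point, leaves out 0.

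The HSP70 family had 10 genes, 5 higher and 5 lower in IDE-KD cells (median 0.018), and none passed the test. Hspa13 encodes STCH, an HSP70 relative of the ER and microsomes without the usual client-binding part. It read 8.999, 9.04, 9.04 and 9.01 on IDE-KD arrays 1 to 4, against 8.79, 8.93, 8.87 and 8.78 on control arrays 1 to 4. All 4 IDE-KD arrays lay above all 4 control arrays, and the IDE-KD values were nearly level: means were 9.02 ± 0.021 in IDE-KD and 8.84 ± 0.074 in control cells (SD, n = 4 each). The exact two-sided permutation p was 0.0286, as it must be for any gene with groups apart, so it adds nothing to that count. The log2 difference was 0.18 (SE 0.11) and limma's adjusted p was 1.00. Its spread within groups was smaller than that of nearly every other probe set, at percentile 0.402 of the 22142. The difference ran from 0.16 to 0.21 with 1 array left out.

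Hspa5 encodes BiP, the HSP70 of the ER that also holds the stress sensors of that compartment inactive. It read 11.002, 11.10, 11.08 and 11.01 on the IDE-KD arrays, against 11.10, 10.86, 10.99 and 10.88 on the control arrays. The groups overlapped through control array 1, and the difference of 0.091 (SE 0.11) was smaller than its error. Hspa9, the mitochondrial HSP70 mortalin, read 7.12, 7.64, 6.42 and 7.11 on the IDE-KD arrays, against 7.71, 7.04, 7.40 and 7.26 on the control arrays. IDE-KD array 3 was the lowest of the 8 and control array 1 the highest. The difference of -0.28 (SE 0.22) came with a spread within groups wider than that of 96.4% of probe sets, and it ran from -0.47 to -0.060 with 1 array left out.

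The stress-inducible cytosolic HSP70 pair, Hspa1a and Hspa1b, are near-identical paralogs, and probes may not separate them. Hspa1a read 6.29, 5.85, 6.08 and 5.43 on the IDE-KD arrays, against 5.80, 5.76, 5.88 and 5.85 on the control arrays. Hspa1b read 5.66, 5.85, 5.45 and 5.32 on the IDE-KD arrays, against 5.77, 5.62, 5.78 and 5.63 on the control arrays. The 4 control arrays of Hspa1a lay close together, while the IDE-KD arrays lay on both sides of them, with SDs of 0.37 in IDE-KD and 0.051 in control cells (n = 4 each). The differences were 0.091 (SE 0.17) for Hspa1a and -0.13 (SE 0.14) for Hspa1b, so these paralogs carried opposite signs within their errors. Hspa12a and Hspa12b, distant HSP70 relatives, also differed in sign. Hspa12a read 5.16, 5.33, 5.29 and 5.45 on the IDE-KD arrays, against 5.67, 5.60, 5.46 and 5.30 on the control arrays. Its IDE-KD arrays were mostly below its control arrays, with control array 4 inside the IDE-KD range, and the difference was -0.20 (SE 0.13). Hspa12b read 4.82, 4.14, 4.19 and 4.47 on the IDE-KD arrays, against 4.16, 4.02, 4.31 and 4.20 on the control arrays, and its mean lay below the median control row. Its difference was 0.23 (SE 0.16).

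The 3 HSP110 genes, whose products exchange the nucleotide of HSP70, gave 1 higher and 2 lower (median -0.074). Hspa4, the APG-2 gene, read 9.23, 9.12, 9.17 and 9.05 on the IDE-KD arrays, against 9.42, 9.14, 9.46 and 9.18 on the control arrays. Control arrays 1 and 3 stood above every IDE-KD array, and control arrays 2 and 4 lay among them. Means were 9.14 ± 0.076 in IDE-KD and 9.30 ± 0.16 in control cells (SD, n = 4 each), a difference of -0.16 (SE 0.12, 95% confidence interval -0.42 to 0.10). Hsph1, the HSP105 gene, read 8.41, 8.76, 8.65 and 8.70 on the IDE-KD arrays, against 8.66, 8.93, 8.57 and 8.66 on the control arrays. The groups overlapped, and the difference of -0.074 (SE 0.13) was within its error.

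The HSP90 genes measured were the cytosolic Hsp90aa1 and the ER paralog Hsp90b1, which encodes GRP94. Hsp90aa1 read 9.95, 10.48, 10.11 and 10.12 on the IDE-KD arrays, against 10.41, 10.04, 10.34 and 10.25 on the control arrays. Hsp90b1 read 9.79, 10.18, 10.01 and 9.96 on the IDE-KD arrays, against 10.20, 9.95, 9.87 and 9.74 on the control arrays. In both genes IDE-KD array 1 was the lowest and IDE-KD array 2 the highest of the IDE-KD arrays, and the control arrays covered a similar range. The differences were -0.095 (SE 0.14) for Hsp90aa1 and 0.045 (SE 0.14) for Hsp90b1.

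Of the 7 small heat shock protein genes 4 were higher and 3 lower (median 0.025), and 4 of the 7 lay below the median control row. Hspb1 encodes HSP27, the best known member, which binds unfolding proteins and actin. It read 3.83, 3.23, 3.69 and 3.20 on the IDE-KD arrays, against 3.36, 2.80, 3.12 and 2.85 on the control arrays. IDE-KD arrays 1 and 3 stood above all control arrays, while control array 1 lay above IDE-KD arrays 2 and 4. Each IDE-KD array read higher than the control array of the same number, and the labels do not say whether these are pairs. Means were 3.49 ± 0.32 in IDE-KD and 3.03 ± 0.26 in control cells (SD, n = 4 each), a difference of 0.46 (SE 0.18, 95% confidence interval 0.074 to 0.84). The unadjusted limma p was 0.0231, the adjusted p was 1.00 and the exact two-sided permutation p was 0.114. All 8 values lay below the median control row of 4.52 and below the median negative control row of 4.16, where array signals carry little information on the amount of RNA. The difference ran from 0.34 without IDE-KD array 1 to 0.56 without control array 1. Hspb8, whose product works with BAG3 in removing misfolded proteins, read 5.96, 6.501, 5.35 and 6.005 on the IDE-KD arrays, against 5.44, 5.73, 5.73 and 6.09 on the control arrays. IDE-KD arrays 2 and 3 were the highest and the lowest of the 8, and the difference was 0.21 (SE 0.21).

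In mitochondria, Hspd1 and Hspe1 encode the HSP60 chamber and its HSP10 lid. Hspd1 read 9.94, 10.37, 10.16 and 10.18 on the IDE-KD arrays, against 10.27, 10.28, 10.10 and 10.00 on the control arrays. Hspe1 read 8.02, 8.51, 8.40 and 8.14 on the IDE-KD arrays, against 8.29, 8.12, 8.18 and 8.38 on the control arrays. For both genes IDE-KD array 1 was the lowest and IDE-KD array 2 the highest of all 8, with group means nearly equal: the differences were 0.0016 (SE 0.13) for Hspd1 and 0.024 (SE 0.14) for Hspe1. The 3 genes with HSP-associated symbols, Hspbp1, Hspbap1 and Hspb11, differed by -0.065 to 0.085. Hspb11 lay below the median control row, and its spread within groups was wider than that of 96.6% of probe sets: it read 3.92, 4.75, 3.46 and 4.09 on the IDE-KD arrays, against 4.34, 4.14, 3.80 and 4.20 on the control arrays. IDE-KD arrays 2 and 3 were its highest and lowest.

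**Figure D2:**
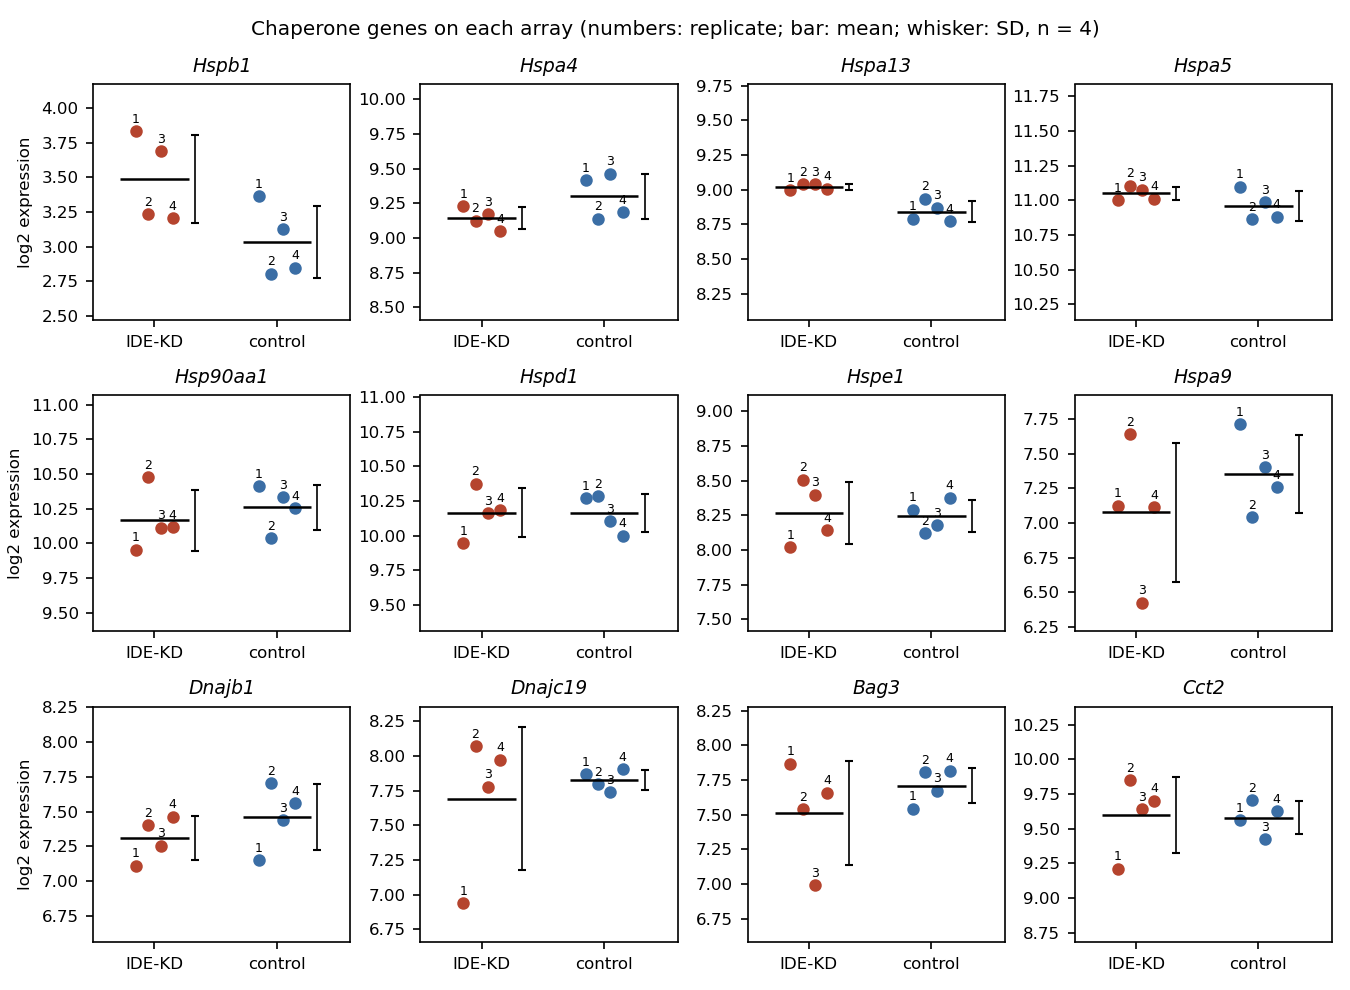
Log2 values (y axis) of selected chaperone genes on each array, IDE-KD arrays left of control arrays, with replicate numbers and group means as horizontal bars and SD (n = 4) as whiskers; every panel spans the same log2 range at its own offset. Hspa13 is the panel without overlap of the groups, and Hspb1 lies between 2.80 and 3.83.

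J-domain proteins were the largest class, with 43 genes, of which 13 were higher and 30 lower in IDE-KD cells (median -0.061). None of the 43 passed the test, and none had groups apart, against 2.8% of all probe sets. All 3 DNAJA genes were lower, with values from -0.16 to -0.027. Of the 12 DNAJB genes 3 were higher and 9 lower (median -0.13), and of the 28 DNAJC genes 10 were higher and 18 lower (median -0.036). With 1 array left out the J-domain median ran from -0.080 to -0.013.

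Dnajb1, the HSP40 that works with cytosolic HSP70 in refolding, read 7.11, 7.40, 7.25 and 7.46 on the IDE-KD arrays, against 7.15, 7.70, 7.44 and 7.56 on the control arrays, a difference of -0.15 (SE 0.14). Dnajb2, a J protein with ubiquitin-binding motifs, read 6.61, 6.56, 6.499 and 6.504 on the IDE-KD arrays, against 6.54, 6.83, 6.78 and 6.73 on the control arrays, a difference of -0.18 (SE 0.11). For Dnajb2 control arrays 2, 3 and 4 lay above all IDE-KD arrays and control array 1 among them. Dnajb6, whose product keeps aggregation-prone proteins soluble, read 8.83, 9.30, 8.93 and 9.10 on the IDE-KD arrays, against 9.38, 9.15, 9.19 and 9.22 on the control arrays. The groups overlapped through IDE-KD array 2 alone, which was above 3 control arrays, and the difference was -0.19 (SE 0.13). Dnajb14, a J protein anchored in the ER membrane, read 5.66, 5.44, 5.73 and 5.63 on the IDE-KD arrays, against 5.47, 5.39, 5.44 and 5.15 on the control arrays. Only IDE-KD array 2 lay inside the control range, and the difference of 0.26 (SE 0.12) had an unadjusted limma p of 0.0589 and an adjusted p of 1.00. Dnajb7 read 2.38, 2.54, 2.74 and 2.78 on the IDE-KD arrays, against 3.37, 2.34, 2.90 and 3.13 on the control arrays. Its values lay below the median control row on all arrays, with a difference of -0.33 (SE 0.20).

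The ER-luminal J proteins that serve BiP, here those of Dnajb9, Dnajc3, Dnajb11 and Dnajc10, showed no common direction beyond their errors. Dnajb11 differed by -0.13 (SE 0.16) and Dnajc10 by 0.033 (SE 0.13). Dnajb9, which encodes ERdj4 and is induced by ER stress, read 7.19, 7.91, 6.90 and 7.36 on the IDE-KD arrays, against 7.35, 7.20, 7.35 and 7.01 on the control arrays. IDE-KD arrays 2 and 3 were its highest and lowest, and the difference was 0.11 (SE 0.19). Dnajc3, which encodes p58IPK, a BiP partner that also restrains the kinase PERK, read 6.79, 7.06, 6.70 and 6.89 on the IDE-KD arrays, against 6.84, 6.85, 6.77 and 6.87 on the control arrays, a difference of 0.028 (SE 0.12). Its control arrays lay within a narrow band inside the IDE-KD range.

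Dnajc5 encodes cysteine string protein, a J protein of secretory vesicles. It read 6.93, 6.77, 6.44 and 6.98 on the IDE-KD arrays, against 6.74, 7.15, 6.79 and 6.70 on the control arrays, with a difference of -0.067 (SE 0.15). Dnajc21, a J protein involved in ribosome assembly, read 7.52, 7.86, 7.21 and 7.46 on the IDE-KD arrays, against 7.67, 7.93, 7.54 and 7.77 on the control arrays. IDE-KD arrays 1, 3 and 4 lay below every control array, and IDE-KD array 2 was above 3 of them. The difference was -0.22 (SE 0.15). Dnaja2, a cytosolic partner of HSP70, read 6.48, 7.28, 6.10 and 6.92 on the IDE-KD arrays, against 6.78, 6.66, 6.66 and 7.04 on the control arrays, a difference of -0.086 (SE 0.21). It was among the 6 genes with the widest replicate spread. Dnajc22 and Dnajc5g were 2 others, both below the median control row. Dnajc22 read 2.37, 2.23, 2.40 and 3.45 on the IDE-KD arrays, against 2.73, 3.24, 3.05 and 2.73 on the control arrays. Its difference of -0.32 (SE 0.24) was -0.60 without IDE-KD array 4, which was the highest of all 8. Dnajc5g read 3.37, 2.97, 3.07 and 3.47 on the IDE-KD arrays, against 3.502, 3.38, 2.51 and 2.74 on the control arrays, a difference of 0.18 (SE 0.21).

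The heat shock factors measured were Hsf2, Hsf3, Hsf4 and Hsf5, 2 of them (Hsf3 and Hsf5) below the median control row, with differences from -0.12 to 0.19. Hsf2, a DNA-binding factor that can pair with HSF1, read 6.94, 7.19, 6.68 and 7.08 on the IDE-KD arrays, against 7.15, 6.96, 7.23 and 6.84 on the control arrays. The difference was -0.070 (SE 0.14). Heat shock factors bind repeats of the unit GAA in alternating orientation, and such letters stood in the promoters of several members. In the RefSeq windows of GRCm38.p6 (250 bases before to 50 after the start, both strands), 73 of the 88 genes had an entry. GAANNTTC stood in 16 of the 73 (21.9%), against 9.04% of 27025 genes with a window. The overlapping motif TTCNNGAA stood in 8 (10.96%), against 9.60% of genes. A longer run, GAANNTTC directly followed by NNGAA, which contains both, stood in 4 (5.48%), against 0.66%: Dnajb6, Hspd1, Hspe1 and Hsph1. The stretches around the matches upstream of the start are given in the direction of transcription, with the matched letters in capitals. Stretches are shown for Hspd1, Hspe1 and Dnajb6, which hold the longer run there, and for Hspb1 and Hspa1a, well-known heat shock genes with the shorter one. The Hsph1 match lies only after the start and is not shown. The windows of Hspd1 and Hspe1, neighbours on opposite strands, have 285 bases in common, so they share the same matches. The Hspd1 stretch (chr1:55088035-55088100, minus strand) and the Hspe1 stretch (chr1:55088035-55088100, plus strand) are 1 piece of DNA read from either side. Its capitals hold 2 overlapping matches to the longer run, 1 on each strand. The others lie at chr5:29735828-29735888 (Dnajb6, plus strand), chr5:135887778-135887853 (Hspb1, plus strand) and chr17:34972229-34972284 (Hspa1a, minus strand).
Hspd1: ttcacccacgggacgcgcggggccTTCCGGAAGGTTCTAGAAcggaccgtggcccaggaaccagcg
Hspe1: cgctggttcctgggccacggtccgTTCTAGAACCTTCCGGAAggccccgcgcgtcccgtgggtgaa
Dnajb6: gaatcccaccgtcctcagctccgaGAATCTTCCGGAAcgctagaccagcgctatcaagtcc
Hspb1: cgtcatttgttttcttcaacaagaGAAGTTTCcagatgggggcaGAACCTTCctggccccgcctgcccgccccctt
Hspa1a: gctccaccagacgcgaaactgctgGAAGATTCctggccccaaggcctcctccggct
The same stretch stands at Hspa1b (chr17:34959311-34959366, minus strand), whose 250 upstream bases differ from those of Hspa1a at 3 positions. A match is a description of letters and not a measured binding site.

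The genes with these letters did not share a direction between the groups. Of the 16 genes with GAANNTTC, 10 were higher and 6 lower in IDE-KD cells (median 0.023), and of the 4 with the longer motif 2 were higher and 2 lower (median -0.036). The means of those 4 over single arrays, relative to each gene's control mean, were -0.28, 0.15, -0.053 and -0.057 on IDE-KD arrays 1 to 4, against 0.064, 0.035, -0.077 and -0.022 on control arrays 1 to 4. IDE-KD array 1 stood lowest, and the other IDE-KD arrays lay on both sides of 0.

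Most of the 6 BAG genes encode proteins that bind the ATPase part of HSP70. Of the 6 genes 3 were higher and 3 lower (median -0.026). Bag2, an inhibitor of the ubiquitin ligase that works with HSP70, read 6.31, 6.77, 6.07 and 6.45 on the IDE-KD arrays, against 5.88, 6.24, 6.12 and 6.28 on the control arrays. IDE-KD arrays 1, 2 and 4 stood above all control arrays, and IDE-KD array 3 was below 3 of them. The difference of 0.27 (SE 0.16) had an adjusted limma p of 1.00. Bag3, a classic heat shock factor target that steers misfolded proteins to autophagy, read 7.87, 7.54, 6.99 and 7.66 on the IDE-KD arrays, against 7.54, 7.81, 7.67 and 7.82 on the control arrays. IDE-KD arrays 1 and 3 were the highest and the lowest of the 8. The difference of -0.20 (SE 0.17) was -0.021 without IDE-KD array 3.

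The CCT subunits form the ring that folds actin and tubulin. The ring subunit gene Cct6a had no named probe set. Of the 8 genes matched 5 were higher and 3 lower (median 0.027). Of these, Cct6b and Cct8l1 lay below the median control row. The other 6 (Cct2, Cct3, Cct4, Cct5, Cct7 and Cct8) shared a pattern over the arrays: IDE-KD array 1 was the lowest of all 8 arrays for 6 of 6 genes, against 19.0% of all 12616 probe sets above the median control row and 34.8% of the 69 chaperone genes there. Cct2 read 9.21, 9.85, 9.64 and 9.70 on the IDE-KD arrays, against 9.56, 9.70, 9.42 and 9.63 on the control arrays. The other 3 IDE-KD arrays lay at the upper end of the control range or above it. The difference was 0.022 (SE 0.15) over all arrays and 0.15 without IDE-KD array 1. Cct4 read 9.01, 9.75, 9.32 and 9.72 on the IDE-KD arrays, against 9.49, 9.43, 9.16 and 9.38 on the control arrays, a difference of 0.086 (SE 0.17). Cct8 read 8.33, 9.15, 8.86 and 8.99 on the IDE-KD arrays, against 8.80, 8.999, 9.06 and 8.93 on the control arrays, a difference of -0.11 (SE 0.17). Averaged over the 6, the value relative to each gene's control mean stood at -0.36, 0.22, -0.0094 and 0.20 on IDE-KD arrays 1 to 4, against -0.022, 0.087, -0.078 and 0.012 on control arrays 1 to 4. Tcp1, a ring subunit with another symbol, was also lowest on IDE-KD array 1: it read 8.15, 8.88, 8.24 and 8.62 on the IDE-KD arrays, against 8.49, 8.60, 8.21 and 8.55 on the control arrays. Cct4, Cct8 and Tcp1 were chosen for this comparison after their values were seen.

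**Figure D3:**
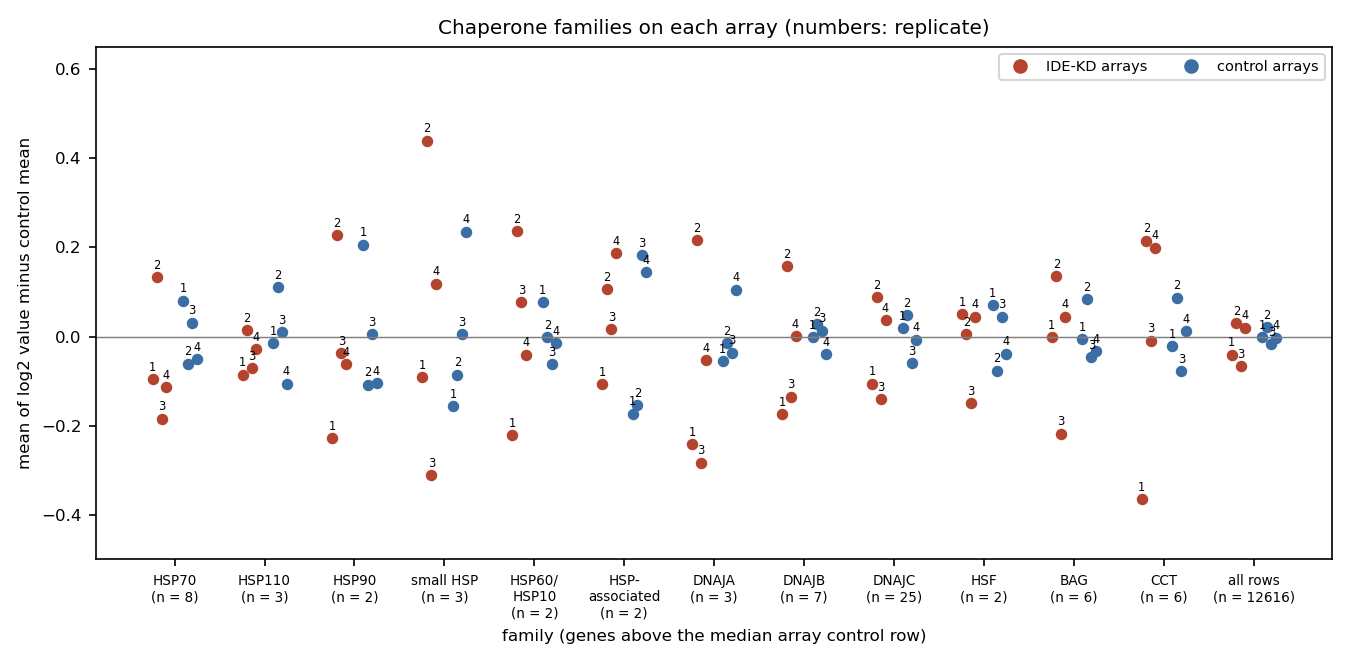
Mean over the genes of a family of the log2 value minus that gene's control mean (y axis), for each of the 4 IDE-KD and 4 control arrays, for genes above the median array control row; the last column holds all 12616 such probe sets. The CCT genes run from -0.36 on IDE-KD array 1 to 0.22 on IDE-KD array 2, while the control arrays lie between -0.078 and 0.087.

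The arrays of the IDE-KD group differed from each other more than the groups did (mean difference -0.026 over the 69 genes above the median control row), and most chaperone families took part. Relative to each gene's control mean these 69 genes averaged -0.13, 0.14, -0.14 and 0.027 on IDE-KD arrays 1 to 4, against 0.0092, 0.019, -0.023 and -0.0044 on control arrays 1 to 4. IDE-KD arrays 1 and 3 stood low and array 2 high, a range of 0.28 in IDE-KD and of 0.042 in control cells. All 12616 probe sets above the median control row had the same order at a smaller size, with -0.041, 0.030, -0.067 and 0.020 on the IDE-KD arrays. The 4748 probe sets above the median level of the 69 genes came closer to them, at -0.071, 0.044, -0.10 and 0.028 on the IDE-KD arrays and between -0.012 and 0.018 on the control arrays. The 1324 positive array control rows moved with it, at -0.12, 0.059, -0.15 and 0.012 on the IDE-KD arrays and between -0.029 and 0.020 on the control arrays. The 5222 negative control rows were low on all 4 IDE-KD arrays, at -0.12, -0.037, -0.12 and -0.069, against -0.038 to 0.058 on the control arrays, a group difference of -0.087. The part of array quality in these means was not tested. IDE-KD array 2 was the highest IDE-KD array for 40 of the 69 genes (58.0%), against 33.1% of the 12616 probe sets. IDE-KD array 1 was the lowest for 30 (43.5%), against 27.9%.

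Families differed in how far the IDE-KD arrays spread. The mean of the 3 small heat shock protein genes above the control row was -0.091, 0.44, -0.31 and 0.12 on IDE-KD arrays 1 to 4, against -0.16, -0.085, 0.0054 and 0.24 on control arrays 1 to 4. The mean of the DNAJA genes was -0.24, 0.22, -0.28 and -0.053 on IDE-KD arrays 1 to 4, against -0.055, -0.014, -0.036 and 0.11 on control arrays 1 to 4. The 3 HSP110 genes spread less over the IDE-KD than over the control arrays, at -0.085, 0.014, -0.071 and -0.028 on the IDE-KD arrays, against -0.014, 0.11, 0.0096 and -0.11 on the control arrays. The SD over IDE-KD arrays exceeded that over control arrays for 50 of the 69 genes (72.5%), against 64.8% of the 12616 probe sets, with median SDs of 0.20 in IDE-KD and 0.14 in control cells. It did so for 6 of 6 CCT, 6 of 6 BAG and 3 of 3 DNAJA genes. The same held for 2 of 2 HSP60/HSP10, 2 of 2 HSF and 19 of 25 DNAJC genes. Counts were 5 of 8 for HSP70, 4 of 7 for DNAJB and 2 of 3 for small heat shock protein genes. HSP90 gave 1 of 2, HSP110 0 of 3 and the HSP-associated genes 0 of 2. The mean of these HSP-associated genes had a range of 0.29 over the IDE-KD and of 0.36 over the control arrays.

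**Figure D4:**
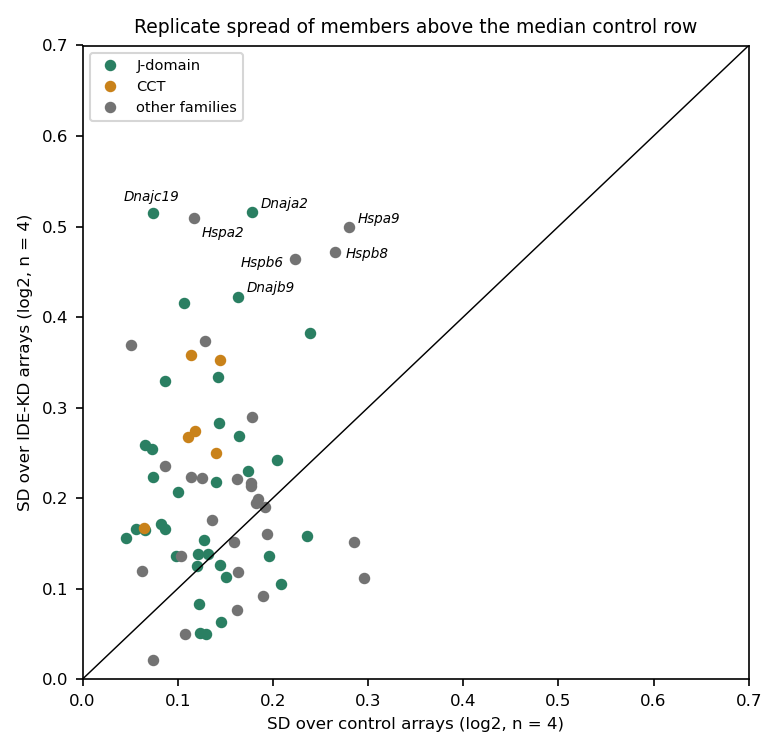
SD over the 4 IDE-KD arrays (y axis, log2) against SD over the 4 control arrays (x axis, log2) for the 69 genes above the median array control row, coloured by class, with the line of equal spread. Of the 69 points 50 lie above the line, and Dnaja2, Dnajc19, Hspa2 and Hspa9 stand near 0.5 on the y axis.

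The counts were highest without IDE-KD array 2. In that setting, 7 of the 88 genes had an unadjusted p under 0.05 (7.95%), against 6.56% of all probe sets, and the groups did not overlap for 8 (9.09%), against 6.59%. Of the 7 genes 5 were lower in the remaining IDE-KD arrays: Hspa2 by -0.45 (SE 0.15), Hspa9 by -0.47 (SE 0.20), Dnajb4 by -0.34 (SE 0.13), Dnajc21 by -0.33 (SE 0.14) and Dnajb6 by -0.28 (SE 0.13). Hspb1 at 0.54 (SE 0.19) and Dnajb14 at 0.32 (SE 0.13) were higher. The adjusted limma p-values of the 7 genes lay between 0.73 and 0.76. Dnajb4 and Hspb1 lay below the median control row. Hspa2, an HSP70 best known from testis and brain, read 4.55, 5.71, 4.74 and 5.08 on all 4 IDE-KD arrays, against 5.197, 5.10, 5.38 and 5.26 on the control arrays. Array 2 was its highest value of the 8, and the other 3 IDE-KD arrays lay below every control array. The members named only for this setting were chosen after their values were seen.

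**Figure D5:**
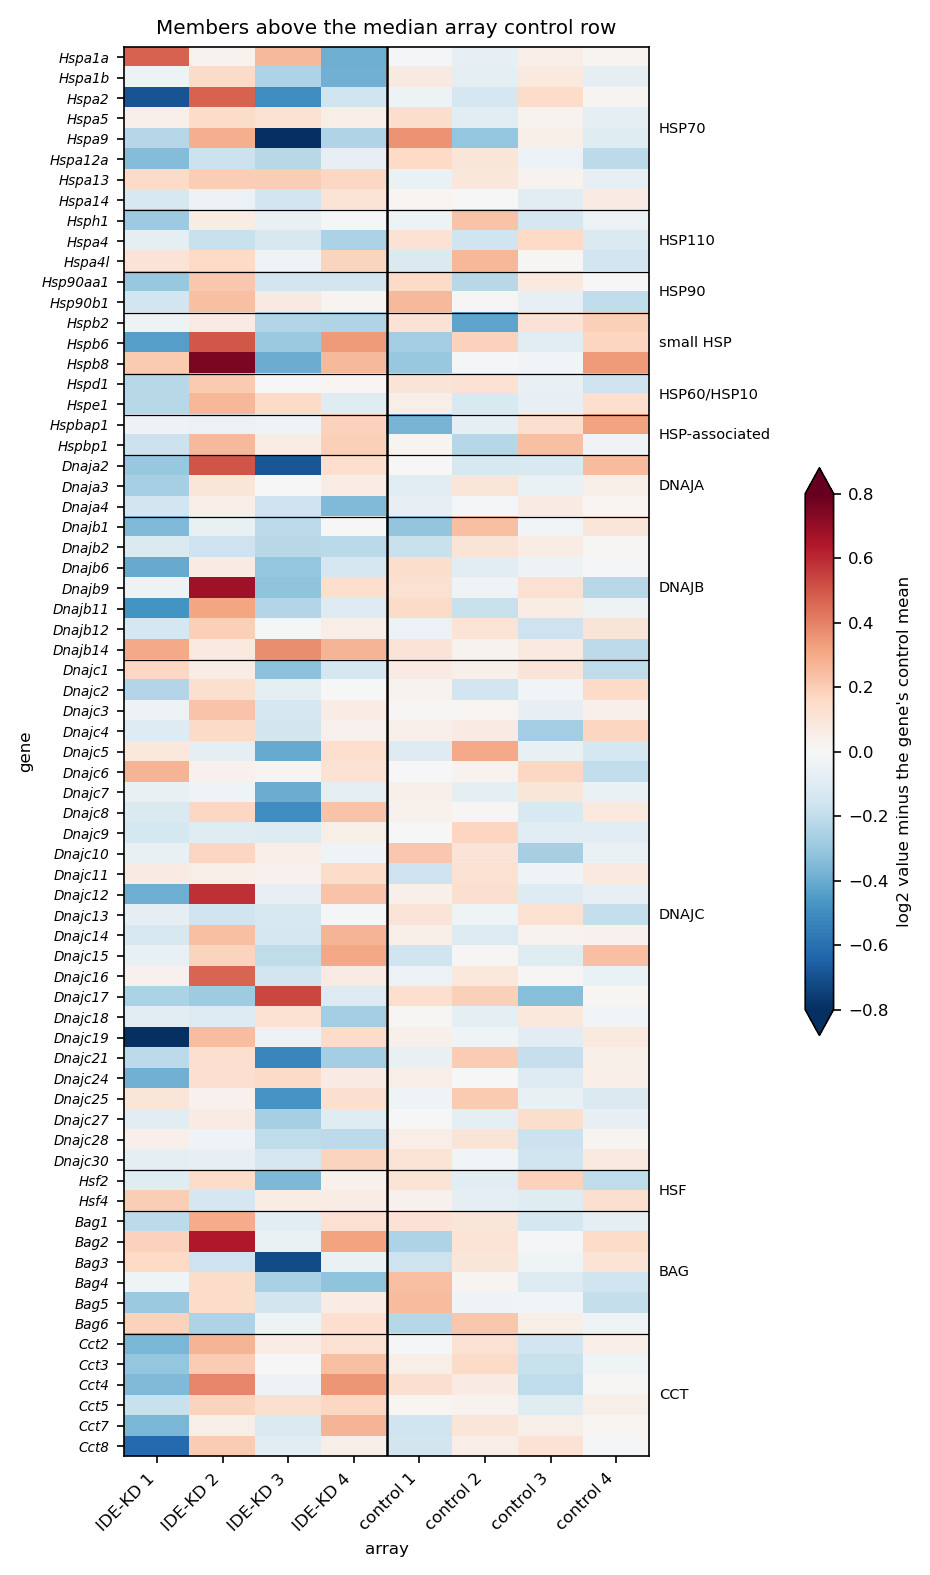
Log2 value minus the gene's control mean (colour) for the chaperone genes above the median array control row (rows, by family) on each array (columns, IDE-KD left of control); the colour scale ends at 0.8 in both directions, and Dnajc19 on IDE-KD array 1 and Hspa9 on IDE-KD array 3 lie beyond it. Columns 1 and 3 of the IDE-KD arrays are mostly on the low side and column 2 on the high side, while the control columns stay near 0.

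By compartment, assigned from textbook localization, the ER genes were the one class here with more members higher than lower. Of 11 ER genes 9 were higher and 2 lower in IDE-KD cells (median 0.045), and Hspa13 had groups apart, against 2.8% of all probe sets. The ER genes averaged -0.033, 0.23, -0.033 and 0.068 relative to control on IDE-KD arrays 1 to 4, against 0.093, -0.0014, -0.0097 and -0.082 on control arrays 1 to 4, so IDE-KD array 2 was above all others and control array 1 next. Without IDE-KD array 2 the ER median was -0.020. Of the 42 cytosolic genes 16 were higher and 26 lower (median -0.049). The 8 mitochondrial genes gave 4 higher and 4 lower (median -0.013), and the 7 nuclear genes 2 higher and 5 lower (median -0.055). The remaining 20 genes were not assigned, with 7 higher and 13 lower.

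The unfolded protein response acts on ER chaperone genes through the ER stress element, here searched on both strands as CCAAT and CCACG with 9 bases between them. Of the 73 genes with a promoter window 3 held it (4.11%), against 0.14% of 27025 genes: Hspa5, Hsp90b1 and Dnajc3. Their stretches are given with the element in capitals, from chr2:34772001-34772067 (Hspa5, plus strand), chr10:86705509-86705680 (Hsp90b1, minus strand, with 2 matches in opposite orientation) and chr14:118937803-118937869 (Dnajc3, plus strand), again from RefSeq on GRCm38.p6.
Hspa5: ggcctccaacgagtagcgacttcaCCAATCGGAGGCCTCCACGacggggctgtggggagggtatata
Hsp90b1: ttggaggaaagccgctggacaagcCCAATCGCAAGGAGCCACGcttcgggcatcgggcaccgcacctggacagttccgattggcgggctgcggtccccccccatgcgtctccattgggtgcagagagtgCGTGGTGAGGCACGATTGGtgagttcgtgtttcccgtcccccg
Dnajc3: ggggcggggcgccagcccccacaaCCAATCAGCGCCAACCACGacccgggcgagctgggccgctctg
All 3 were higher in IDE-KD cells, by 0.091 (SE 0.11), 0.045 (SE 0.14) and 0.028 (SE 0.12), each less than its error. They averaged -0.049, 0.20, 0.019 and 0.043 relative to control on IDE-KD arrays 1 to 4, against 0.14, -0.023, -0.034 and -0.079 on control arrays 1 to 4. Without IDE-KD array 2 Hsp90b1 stood at -0.020 and Dnajc3 at -0.040, while Hspa5 ran from 0.060 to 0.14 with any 1 array left out.

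Genes that work with these chaperones under other names were read in 6 lists. None of their members had an unadjusted p under 0.05, against 4.59% of all probe sets. Some genes stood in several lists. The HSP90 co-chaperones gave 8 higher and 14 lower of 22 (median -0.050). Rpap3, which links HSP90 to the assembly of large complexes, differed by -0.18 (SE 0.14), and Cdc37, the co-chaperone of kinases, by -0.18 (SE 0.14). The 13 CCT and prefoldin partners gave 8 higher and 5 lower (median 0.024). Bbs10, a CCT relative, differed by 0.20 (SE 0.17), and Pfdn2, a prefoldin subunit, by -0.18 (SE 0.16). Like the CCT genes, this list spread over the IDE-KD arrays, with means of -0.18, 0.31, -0.13 and 0.092 on IDE-KD arrays 1 to 4, against 0.0019, 0.039, -0.025 and -0.016 on control arrays 1 to 4. The ER partners gave 5 higher and 7 lower of 12, with Sec61a1, the translocation channel, at 0.10 (SE 0.12) and Sil1, an exchange factor of BiP, at -0.087 (SE 0.13). The 13 mitochondrial partners gave 8 higher and 5 lower (median 0.067). Of these, Dnlz, a helper of mortalin, differed by 0.14 (SE 0.11) and Grpel1, the exchange factor of mortalin, by -0.15 (SE 0.15). The 6 J proteins and small heat shock proteins with other symbols gave 2 higher and 4 lower, with Cryaa, the lens crystallin, at 0.30 (SE 0.20) and Hscb, a J protein of iron-sulfur cluster assembly, at -0.088 (SE 0.20), both below the median control row.

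The sixth list held regulators and targets of heat shock factors, with 4 higher and 10 lower of 14 (median -0.11). Its members Chordc1, Stip1, Fkbp4 and Ahsa1 also stood in the list of HSP90 co-chaperones, and Cryab in that with small heat shock proteins. Sqstm1, which encodes the autophagy receptor p62, was the gene of the list with groups apart, against 2.8% of all probe sets. It read 9.51, 9.44, 9.48 and 9.70 on IDE-KD arrays 1 to 4, against 9.74, 9.78, 9.72 and 9.70 on control arrays 1 to 4. IDE-KD array 4 and control array 4 were almost level, and the other IDE-KD arrays lay clearly lower. The difference was -0.20 (SE 0.11), with a limma adjusted p of 1.00. In the exact two-sided permutation test p was 0.0286, as for any gene with groups apart. Vcp, which encodes the unfoldase p97, read 8.45, 8.45, 8.08 and 8.51 on the IDE-KD arrays, against 8.54, 8.67, 8.71 and 8.50 on the control arrays. Only IDE-KD array 4 reached into the control range, just above control array 4, and the difference was -0.24 (SE 0.13).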

How the data were processed

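The values deposited by the authors were log2 expression levels, with a column for each array. RMA, oligo and limma appear in the submitters' processing notes with neither version nor role. RMA usually equalises the arrays and compresses low signals. The values were used as deposited. Of 29129 rows, 22142 transcript clusters were tested, and 6923 array control rows and 64 unplaced rows were left out. The platform annotation named 19527 rows and left 2615 unnamed. All 88 members matched the mouse gene table. The difference between IDE-KD and control was fitted with limma 3.58.1 under R 4.3.3 (lmFit, then eBayes) with no covariate. Its p-values were adjusted by Benjamini-Hochberg over the 22142 rows, with 0.05 as threshold. Single genes also had an exact two-sided permutation test. Tested on simulated data with 22142 rows over 10 rounds, limma called 43.2% of 1.5-fold, 98.2% of 2-fold and 100% of 3-fold changes. Each round drew independent noise without shifts of whole arrays, and it changed many rows at once, most by 2-fold or more. That eases the adjusted threshold, so these shares do not tell how often a lone change would be called in the real data. Precision is limited by the 8 arrays: 95% intervals of members reached 0.31 (median, log2) to either side of the difference.

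Named with all values were the markers Hspb1 and Hspa4, a list of well-known members, the 10 members with the smallest p, those with groups apart, and the 6 with the widest replicate spread. The 2 genes of each related list with the smallest p are named by their difference, of them Sqstm1 and Vcp with all values. Members, compartments and lists were chosen with earlier results of these data known. Alternatives were eBayes with trend and robust settings, array weights, a further quantile normalization, centred arrays, a filter on dim rows, a replicate block and leaving out each array. No p is given for a list. Deviations of arrays with the same replicate number correlated by 0.09 to 0.13, against -0.23 to 0.21 for arrays with different numbers. Not all of the same-numbered correlations were over 0.1, so the numbers were not taken as pairs. The labels do not say whether they mark pairs. Protein sequences were not used here, and promoters were used for 73 of the 88 genes.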

Additional observations from a re-analysis of the deposited data

Results flagged for a closer look

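Among 90 groups of 4 arrays of named genes, 6 held an array whose gap to its nearest neighbour was an unusually large share of the group's range by Dixon's 95% critical value. Chance gives about 1 in 20 such groups. All 6 were in the IDE-KD group. Dnajc22, below the median control row, read 3.45 on IDE-KD array 4, against 2.23 to 2.40 on the other IDE-KD arrays. Cdc37 read 6.80 on IDE-KD array 3, against 7.17 to 7.24 on the others. Pfdn2 read 7.17 on IDE-KD array 3, against 7.82 to 7.88 on the others. Vcp read 8.08 on IDE-KD array 3, against 8.45 to 8.51 on the others. Sec61a1 read 10.78 on IDE-KD array 2, against 11.01 to 11.02 on the others. Grpel1 read 7.59 on IDE-KD array 1, against 8.12 to 8.17 on the others. The cause was not tested for any of them.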

How the results depend on the processing

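Under all 14 alternatives the count of probe sets at an adjusted limma p under 0.05 was 0, while those at an unadjusted p under 0.05 numbered 522 (dim rows left out) to 1452 (without IDE-KD array 2). With arrays centred on their medians the groups were apart for 2 chaperone genes (2.27%), as Dnajb14 joined Hspa13, against 2.82% of all probe sets. Hspd1 stood at -0.012 in that setting. With only rows above the median control row, Hspb1 drops out and Dnajb14 alone had an unadjusted p under 0.05. That was 1.45% of the 69 chaperone genes left, against 4.14% of the 12616 probe sets. The labels do not say whether same-numbered arrays are pairs. Their deviations all correlated positively (0.09 to 0.13), but not every array correlated best with its own number. With the replicate block 1253 probe sets had an unadjusted p under 0.05 (5.66%), against 1017 (4.59%) without it. The count of chaperone genes was 1 (1.14%), Hspb1, with an SE of 0.12 against 0.18 without the block. Its unadjusted limma p was 0.0032 with the block and 0.0231 without it, and its adjusted limma p with the block was 0.76. With 1 array left out, the members at unadjusted p under 0.05 ranged from 0 to 7, those with groups apart from 1 to 8 and the median over members from -0.068 to 0.019. Over all probe sets these settings gave 3.56% to 6.56% at unadjusted p under 0.05 and 4.56% to 6.59% with groups apart. Of 45 named genes 32 kept their direction throughout, though not their size: leaving out 1 array gave -0.25 to -0.012 for Pfdn2, -0.21 to -0.012 for Grpel1, 0.023 to 0.41 for Hspb8, -0.20 to -0.024 for Hsp90aa1, -0.22 to -0.045 for Hspa1b and 0.0093 to 0.34 for Dnajc5g. The other 13 were within their errors of 0, and leaving out 1 array gave -0.035 to 0.25 for Hspa1a, -0.022 to 0.13 for Hsp90b1, -0.12 to 0.0018 for Hsph1, -0.068 to 0.075 for Hspd1, -0.055 to 0.11 for Hspe1, -0.077 to 0.26 for Dnajb9, -0.040 to 0.082 for Dnajc3, -0.13 to 0.046 for Dnajc5, -0.14 to 0.026 for Hsf2, -0.062 to 0.15 for Cct2, -0.29 to 0.13 for Hspb11, -0.28 to 0.11 for Dnaja2 and -0.29 to 0.070 for Hscb. The cause was not tested. Genes below the median control row, 19 of the 88, carry signals too low to read amounts from.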
